A study of Sus scrofa with 12 samples.

Results

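The factors of translation initiation and elongation were represented here by 43 genes of the 6765 that a single symbol of the array annotation named. They were the genes whose symbol starts with EIF or EEF, together with EF1ALPHA. These genes had 74 probe sets, groups of short probes that together read 1 transcript; 71 were tested and 3 were control probe sets of the array maker. Each gene was represented by its brightest tested probe set, the one with the highest mean over all 12 arrays, and the other sets of 17 genes are given beside it.

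The arrays came from semimembranosus, a muscle of the ham. It was taken from 3 female commercial hybrid pigs of about 160 kg from 1 farm, stunned with 87% CO2 and slaughtered at the same abattoir. Portions of 3 to 5 g from the left leg of every pig were frozen 20 min (T0), 2 h (T1), 6 h (T2) and 24 h (T3) after death, in the cold chain down to 4 °C. Each time therefore has 3 arrays, 1 from each pig, and the pig number pairs them. The earliest portion was itself taken after death, so each change below is relative to 20 min, and time after death and cooling cannot be told apart.

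Initiation begins when eIF2 carries the initiator tRNA to the small ribosomal subunit, helped by eIF1, eIF1A and the many-subunit eIF3. The eIF4 factors recruit that complex to the cap at the start of an mRNA, and the large subunit then joins with the help of eIF5B. Phosphorylation of eIF2 by its kinases blocks eIF2B, which reloads eIF2 with GTP, and 4E-BP proteins hold back the cap-binding protein eIF4E. During elongation eEF1A brings aminoacyl-tRNAs to the ribosome, and the eEF1B complex recharges it. In skeletal muscle these steps are known to respond to energy, amino acids and insulin, mostly through the proteins and their phosphorylation, which arrays do not measure.

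The values were log2 intensities, on which a difference of 1 is a doubling of signal. Array medians lay between 5.89 and 5.94. The 11 muscle fibre marker genes on the array averaged between 14.20 and 14.24 on every array, and the labelled tissue thus carried its markers at every time. Macrophage and leukocyte markers (5 of 9 on the array) averaged 6.16 to 6.69 at 20 min and 5.35 to 5.97 at 24 h, without overlap. Of these, CD163, C1QA and C1QC were lower at 24 h in 3 of 3 pigs (-1.29, -1.01 and -1.63), whereas CD14 and PTPRC were higher in 3 of 3 pigs (0.22 and 0.15; limma unadjusted p 0.0345 and 0.0832). Fibroblast markers (6 of 8) averaged 8.72 to 9.37 at 20 min and 8.66 to 8.97 at 24 h, and the 20 min array of pig 3 was highest on both lists. In bulk tissue, fewer cells of a type and less RNA per cell cannot be told apart.

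To see how the factors stood as time after death passed, each later time was compared with 20 min within pigs. The changes were small: none of the 43 mean changes exceeded 1.29-fold, and no gene passed the threshold in limma after Benjamini-Hochberg adjustment over all 23999 tested probe sets. At 2 h, 1 gene had an unadjusted p under 0.05 in limma, or 2.33% of the 43, against 7.95% of all probe sets tested. It was higher, as were 4.01% of all probe sets; 0 genes were lower (3.94% of all probe sets), and the smallest adjusted p (limma, Benjamini-Hochberg) was 0.621. At 6 h, 2 genes (4.65%), both higher, had an unadjusted p under 0.05 in limma against 8.83% of all probe sets, of which 4.29% were higher and 4.54% lower. The smallest adjusted p there was 0.530 in limma. At 24 h, 5 genes (11.6%) had an unadjusted p under 0.05 in limma against 13.1% of all probe sets. All of these were lower, a direction in which 6.67% of all probe sets and 8.71% of the brightest sets of all named genes lay, whereas 6.41% of all probe sets were higher; the smallest adjusted p was 0.280. The limma F test over the 4 times found 0 genes at an adjusted p under 0.05 (0.00417% of all probe sets) and 0 at an unadjusted p under 0.05 (8.22% of all probe sets).

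The genes leaned to lower means at 24 h. A mean below that at 20 min was found for 24 of 43 genes at 2 h, 28 at 6 h and 35 at 24 h, or 55.8%, 65.1% and 81.4%. Over all probe sets tested the shares were 50.0%, 51.8% and 48.0%, and over the brightest sets of all named genes 52.5%, 51.3% and 52.8%. Without the dimmest 40% of probe sets, 54.3% of the rest had a lower mean at 24 h, with a median change of -0.02, beside 35 of 42 genes. The comparisons with 20 min share the arrays of that time, so their counts are not separate evidence. The median change of the 43 genes was -0.02, -0.03 and -0.06 at the respective times, and the medians of pigs 1, 2 and 3 at 24 h were -0.07, -0.06 and -0.08. Lower levels in 3 of 3 pigs at 24 h were seen for 15 genes (34.9%) against 16.7% of all probe sets and 21.1% of the brightest sets of all named genes. Higher levels in 3 of 3 pigs were seen for 0 genes against 17.8% and 16.3%. At 2 h those counts were 12 lower (14.0% of all probe sets) and 6 higher (13.8%), and at 6 h 9 lower (16.6%) and 8 higher (15.4%).

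The lean at 24 h held in number under another scaling, but the median change lay nearer 0. With cyclic loess 30 of 43 genes had a lower mean, against 51.4% of all probe sets. The median change was -0.04, and that of all probe sets -0.005. With arrays centred on their brightest 10% of probe sets 31 genes had a lower mean, against 39.9% of all probe sets, and the median was -0.03. Centring moved the median of all probe sets at 24 h from 0.01 to 0.04. It shifts all probe sets of an array alike, so the members did not move relative to the rest. The probe sets at unadjusted p under 0.05 in limma went from 1538 higher and 1600 lower to 2334 higher and 1119 lower. The 95% intervals bound the changes. They lay within 1.5-fold for all 43 genes at 2 h and 6 h and for 42 at 24 h, EIF4E being the exception. The same held for 95.04%, 94.71% and 93.27% of all probe sets at 2 h, 6 h and 24 h. Over the brightest sets of all named genes the shares were 95.27%, 94.93% and 93.07%. Intervals this narrow were thus not particular to these genes.

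**Figure D1:**
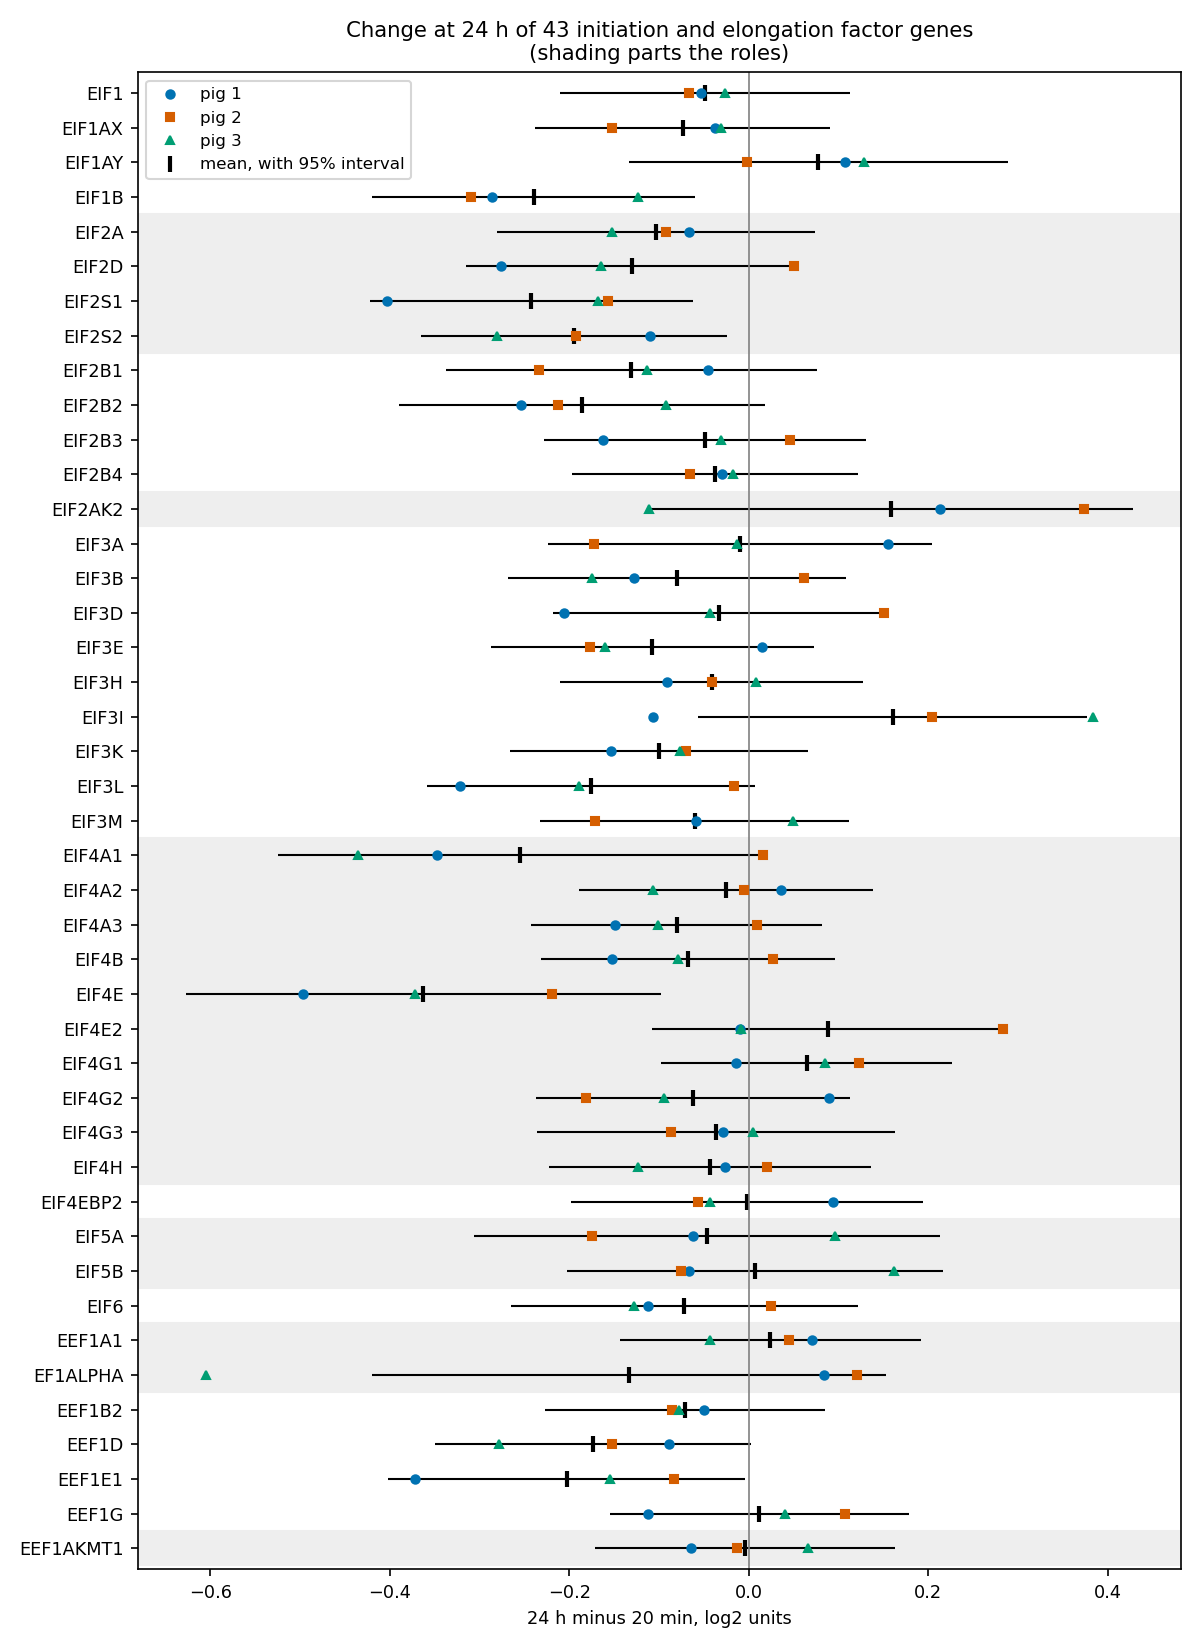
The horizontal axis gives the change from 20 min to 24 h in log2 units for each of the 43 genes, in order of role; coloured marks are the 3 pigs, black ticks their mean and black lines the 95% interval of the limma fit. Means lie below 0 for 35 genes, from -0.36 for EIF4E to 0.16 for EIF3I, and most intervals cross 0.

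**Figure D2:**
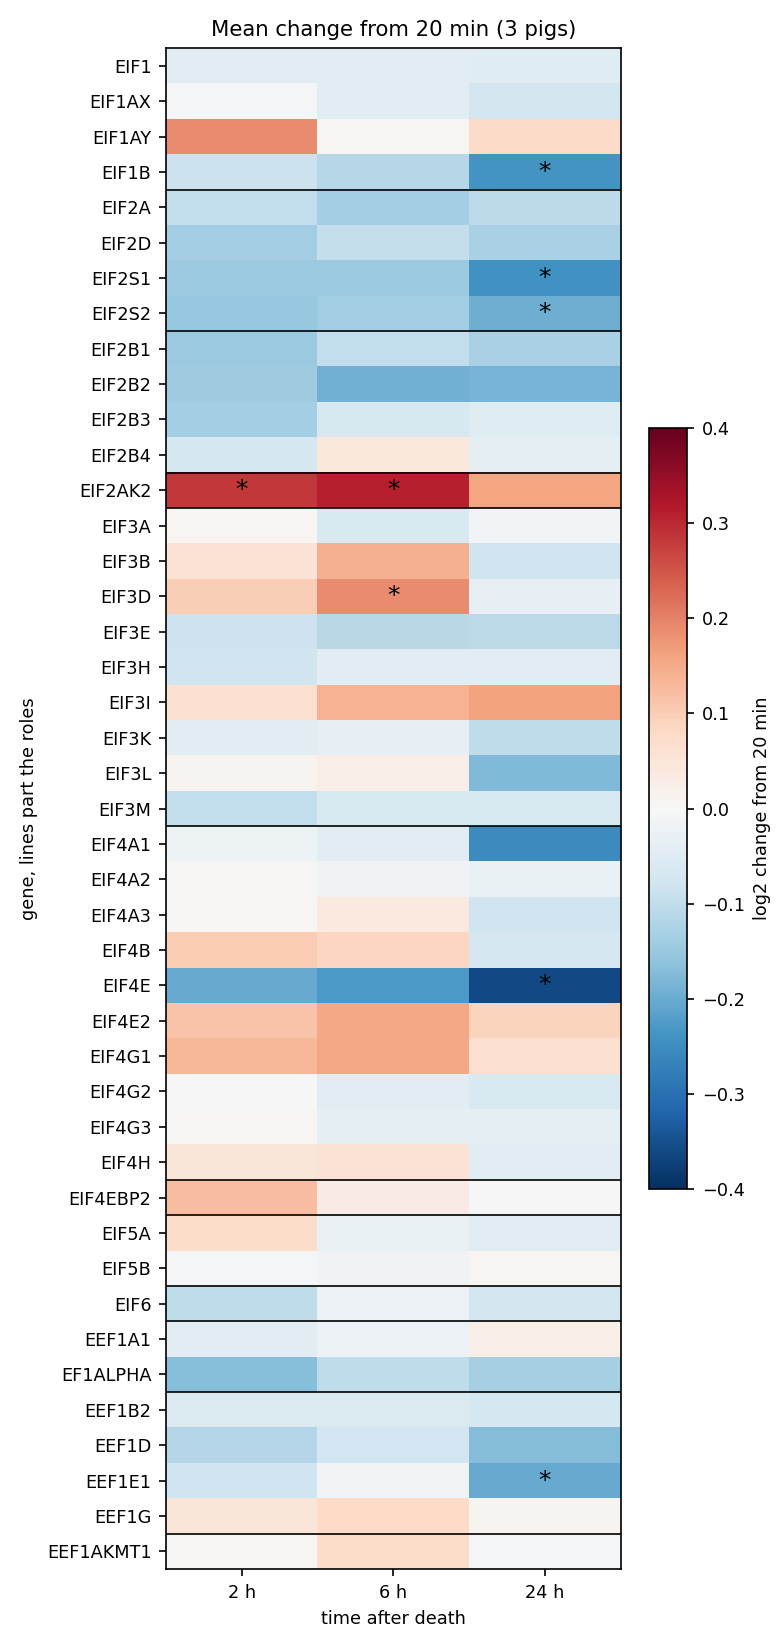
Each cell is the mean change of 3 pigs from 20 min, in log2 units (colour bar), for a gene at 2 h, 6 h or 24 h, and an asterisk marks an unadjusted p under 0.05 in limma. The asterisks fall on EIF2AK2 at 2 h and 6 h, EIF3D at 6 h and 5 genes at 24 h, and blue cells run through the eIF2 and eIF2B genes.

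The genes of eIF2 and its helpers had the most even lower means. All 4 of them (EIF2S1, EIF2S2, EIF2A and EIF2D) had lower means at 2 h, 6 h and 24 h, with medians of -0.14, -0.14 and -0.16. The count stayed at 4 in 19 fits, which were the main fit, a filter on dim sets, other scalings, and left-out arrays or pigs. The filter and the loss of an array of a time not compared leave a mean change as it was, so not all 19 put the count to the test. EIF2S1 encodes the alpha subunit of eIF2, which carries the serine that the eIF2 kinases phosphorylate. It read 10.56, 10.66 and 10.61 in pigs 1, 2 and 3 at 20 min, 10.37, 10.57 and 10.44 at 2 h, 10.37, 10.47 and 10.54 at 6 h, and 10.16, 10.50 and 10.44 at 24 h. All 6 h and all 24 h values lay below all values at 20 min, and the lowest was the 24 h array of pig 1. The change at 24 h was -0.24 ± 0.14 (SD over 3 pigs; SE 0.0823), or 1.18-fold lower, with an unadjusted p of 0.0126 and an adjusted p of 0.282 in limma.

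EIF2S2, the beta subunit, read 11.30, 11.45 and 11.48 at 20 min, 11.26, 11.31 and 11.21 at 2 h, 11.18, 11.30 and 11.34 at 6 h, and 11.19, 11.26 and 11.20 at 24 h. Again no 24 h value reached the 20 min values, with all 3 pigs close together at 24 h. Its change at 24 h was -0.19 ± 0.09 (SD, 3 pigs), with an unadjusted p of 0.0289 and an adjusted p of 0.336 in limma. EIF2A, an initiator tRNA binding protein apart from the eIF2 trimer, was lower by nearly the same amount in every pig at 6 h, -0.13, -0.14 and -0.14 (limma adjusted p 0.636). The change of EIF2D, which also binds tRNA on the small subunit, was -0.13 at 24 h with a 95% interval of -0.31 to 0.05. The gamma subunit gene EIF2S3 shared each of its 2 probe sets with another symbol and was not analysed here.

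The exchange factor eIF2B showed the same direction with less evenness. Its 4 genes on the array had lower means at 2 h (median -0.14) and at 24 h (median -0.09), and 3 of 4 did at 6 h; with cyclic loess 3 of 4 did at 24 h. EIF2B2, the beta subunit, was lower in 3 of 3 pigs at every later time and did not overlap with 20 min at 6 h or 24 h. Its changes there were -0.19 ± 0.10 and -0.19 ± 0.08 (SD, 3 pigs; limma adjusted p 0.584 and 0.415). The other genes, EIF2B1, EIF2B3 and EIF2B4, had mean changes of -0.13, -0.05 and -0.04 at 24 h, with intervals that include 0. A dimmer probe set of EIF2B1 read 7.82, 7.73 and 7.90 at 20 min and 7.46, 7.49 and 7.55 at 24 h. There all pigs were lower with no overlap, by -0.32 ± 0.07 (SD, 3 pigs; limma unadjusted p 0.00991, adjusted p 0.273).

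EIF2AK2, the interferon-inducible eIF2 kinase also called PKR, stood on the other side. It read 6.30, 5.95 and 6.81 in pigs 1, 2 and 3 at 20 min, 6.33, 6.56 and 7.03 at 2 h, 6.64, 6.28 and 7.08 at 6 h, and 6.52, 6.33 and 6.70 at 24 h. Pig 3 was highest at each time, and the times overlapped because the pigs lay further apart than the times. At 2 h the change was 0.28 ± 0.30 (SD, 3 pigs; limma unadjusted p 0.0422, adjusted p 0.621), of which pig 2 alone had 0.60. At 6 h it was more even, at 0.34, 0.32 and 0.27 in the 3 pigs (mean 0.31 ± 0.04 SD, or 1.24-fold higher; limma unadjusted p 0.0276, adjusted p 0.530), and at 24 h it was 0.16 ± 0.25 with pig 3 lower. The unadjusted p at 6 h rose to 0.05 or more when any 1 pig was left out, and also without the pig block. The eIF2 kinase genes EIF2AK1, EIF2AK3 and EIF2AK4 had no probe set with a single symbol and were not analysed here.

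**Figure D3:**
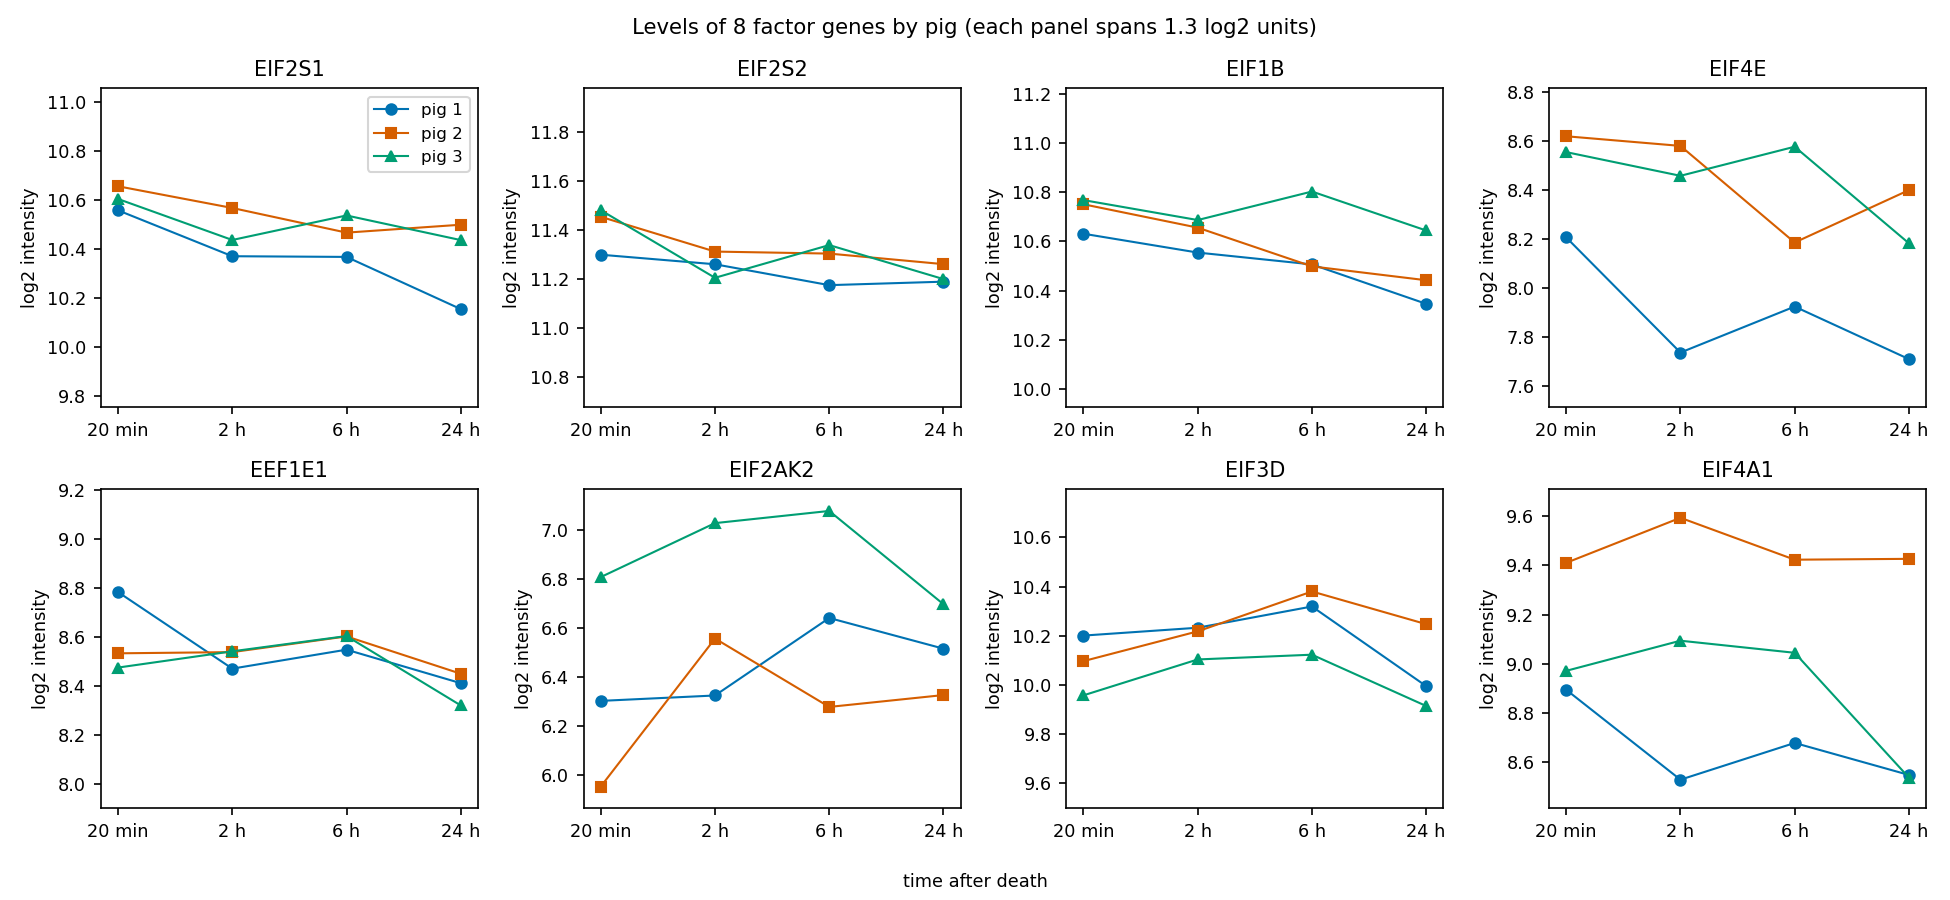
Panels show the log2 intensity of 8 genes against time after death, 1 line per pig, with 1 array per point and a vertical span of 1.3 log2 units in each panel. EIF2S1 and EIF2S2 lie lower at 24 h than at 20 min without overlap, whereas the lines of EIF4A1, EIF4E and EIF2AK2 are spread further between pigs than between times.

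Of the scanning factors, which help the small subunit find the start codon, EIF1B stood out. EIF1B, a close relative of EIF1, read 10.63, 10.75 and 10.77 at 20 min, 10.55, 10.66 and 10.69 at 2 h, 10.51, 10.50 and 10.80 at 6 h, and 10.35, 10.44 and 10.64 at 24 h. Every pig was lower at 24 h, although the 24 h value of pig 3 reached the range of 20 min. The change was -0.24 ± 0.10 (SD, 3 pigs), or 1.18-fold lower, with an unadjusted p of 0.0132 and an adjusted p of 0.286 in limma. EIF1 and EIF1AX had mean changes of -0.05 and -0.07 at 24 h, also lower in 3 of 3 pigs, with 95% intervals of -0.21 to 0.11 and -0.24 to 0.09. EIF1AY, named for the Y-linked copy, read only 2.90 to 3.33 on the arrays of these female pigs, at percentile 3.51 of all probe set means.

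The 9 eIF3 subunit genes did not share a direction before 24 h. At 2 h 4 of 9 had a lower mean, at 6 h 5 and at 24 h 8 (6 with cyclic loess), with medians of 0.01, -0.03 and -0.06. EIF3D, a subunit that can itself bind the cap, read 10.20, 10.10 and 9.96 at 20 min, 10.23, 10.22 and 10.10 at 2 h, 10.32, 10.38 and 10.12 at 6 h, and 9.99, 10.25 and 9.91 at 24 h. The 6 h level was the highest of each pig, yet 6 h overlapped with 20 min because pig 3 was low throughout. The change at 6 h was 0.19 ± 0.09 (SD, 3 pigs; limma unadjusted p 0.0454, adjusted p 0.560), and at 24 h it was -0.03. The unadjusted p at 6 h was 0.05 or more without the pig block, with pig as a random block and without any 1 pig, and it stayed below 0.05 in 9 of 24 alternatives. From 6 h to 24 h, EIF3B, EIF3D and EIF3L were lower in 3 of 3 pigs, by -0.22, -0.22 and -0.20 on average, with unadjusted p of 0.0243, 0.0225 and 0.0329 in limma. These were the only members below 0.05 in that comparison, 3 of 43 or 6.98%. Of all probe sets 8.08% were below 0.05 in either direction and 3.80% on the lower side. The adjusted p of the 3 genes ranged from 0.589 to 0.610 in limma. EIF3B and EIF3L encode a scaffold subunit and a peripheral subunit. EIF3I, a small scaffold subunit, had the highest mean change at 24 h of all 43 genes, 0.16 ± 0.25 (SD, 3 pigs; limma adjusted p 0.499), with pig 1 lower.

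The cap-binding eIF4 genes parted between EIF4E and the brightest set of EIF4G1. EIF4E encodes the protein that holds the cap and had the lowest mean change at 24 h of the 43 genes. It read 8.21, 8.62 and 8.56 at 20 min, 7.74, 8.58 and 8.46 at 2 h, 7.93, 8.19 and 8.58 at 6 h, and 7.71, 8.40 and 8.18 at 24 h. Pig 1 lay lowest at every time, and the 24 h value of pig 2 exceeded the 20 min value of pig 1, so the times overlapped. The change at 24 h was -0.36 ± 0.14 (SD, 3 pigs; SE 0.121), or 1.29-fold lower, with a 95% interval of -0.63 to -0.10. In limma its unadjusted p was 0.0116 and its adjusted p 0.280; without the pig block the unadjusted p was above 0.05.

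EIF4G1, the scaffold that links eIF4E to eIF4A and eIF3, read 10.64, 10.42 and 10.39 at 20 min, 10.74, 10.53 and 10.58 at 2 h, 10.77, 10.60 and 10.55 at 6 h, and 10.63, 10.55 and 10.47 at 24 h. On this set EIF4G1 was higher in 3 of 3 pigs at 2 h and 6 h, by 0.13 ± 0.05 and 0.15 ± 0.03 (SD, 3 pigs, limma adjusted p 0.665 and 0.578). The dimmer EIF4G1 set had mean changes of -0.13, 0.12 and -0.26 at 2 h, 6 h and 24 h, so the sets differed in sign at 2 h and 24 h. At 24 h the change of the brightest set was 0.06 with a 95% interval of -0.10 to 0.23, and with the mean of both sets it was -0.10. EIF4A1, the helicase that unwinds the 5′ end, read 8.89, 9.41 and 8.97 at 20 min, 8.53, 9.59 and 9.09 at 2 h, 8.68, 9.42 and 9.04 at 6 h, and 8.55, 9.43 and 8.54 at 24 h. Pigs 1 and 3 were lower at 24 h and pig 2 was level, which gave -0.26 ± 0.24 (SD, 3 pigs; limma unadjusted p 0.0603, adjusted p 0.397). EIF4A2, its close relative and abundant in muscle, stayed between 13.16 and 13.38 on the 12 arrays, with changes of 0.01, -0.01 and -0.03. EIF4E2, an eIF4E homologue, was higher in 3 of 3 pigs at 6 h without overlap (0.16 ± 0.11 SD; limma adjusted p 0.628). The other genes, EIF4A3, EIF4B, EIF4G2, EIF4G3 and EIF4H, had mean changes of -0.08 to -0.04 at 24 h.

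EIF4EBP2, which encodes a 4E-BP that holds back eIF4E, was the only inhibitor gene with a single symbol. It had 5 tested sets, and the brightest had changes of 0.12, 0.03 and 0.00 at 2 h, 6 h and 24 h. Over the 5 sets the changes ran from -0.02 to 0.32, -0.06 to 0.37 and -0.19 to 0.23 at those times. The next brightest set read 10.22, 10.17 and 9.98 at 20 min, 10.17, 10.64 and 10.53 at 2 h, 10.30, 10.50 and 10.39 at 6 h, and 10.23, 10.40 and 10.43 at 24 h. On that set every 6 h and 24 h value lay above every 20 min value. Its changes were 0.32, 0.27 and 0.23, with unadjusted p of 0.0116, 0.0271 and 0.0552 in limma (adjusted p 0.590, 0.530 and 0.390).

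EIF5A, the factor with the amino acid hypusine that helps ribosomes past difficult peptide bonds, read 10.72, 11.01 and 10.64 at 20 min, 10.72, 11.30 and 10.57 at 2 h, 10.79, 10.80 and 10.70 at 6 h, and 10.66, 10.83 and 10.74 at 24 h. Only the 2 h array of pig 2 stood clear of the others. Its changes were 0.07, -0.03 and -0.05. A second EIF5A set was more spread, at 8.80, 8.94 and 8.31 at 20 min and 8.47, 9.89 and 9.17 at 2 h, with a change of 0.49 ± 0.71 (SD, 3 pigs; limma unadjusted p 0.0468, adjusted p 0.625). Pig 2 was high at 2 h on both sets. EIF5B, the GTPase of subunit joining, had changes of 0.00, -0.02 and 0.01 on its brightest set. A dim further set of EIF5B had changes of -0.40 and -0.42 at 2 h and 6 h, lower in 3 of 3 pigs without overlap (limma adjusted p 0.610 and 0.530). EIF6, which keeps the large subunit from joining too early, read 9.13, 9.03 and 9.20 at 20 min, 9.14, 8.89 and 9.03 at 2 h, 9.04, 9.18 and 9.07 at 6 h, and 9.02, 9.05 and 9.07 at 24 h. Its times overlapped, and its changes were -0.10, -0.02 and -0.07.

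The elongation factor eEF1A was read by 13 probe sets under the symbols EF1ALPHA and EEF1A1, and these sets did not move together. The gene table of the current pig annotation gives ef1alpha as a synonym of EEF1A1, and the 3 control sets of both symbols cite 1 accession. Both symbols may thus stand for 1 gene, although the gene ID given for EF1ALPHA was not matched in that table. Counted as 1 gene with its brightest tested set, they leave 42 genes, of which 35 (83.3%) had a lower mean at 24 h and 11 (26.2%) differed between pigs. The brightest tested set, under EF1ALPHA, read 12.66, 12.45 and 13.41 at 20 min, 12.72, 12.31 and 12.98 at 2 h, 12.79, 12.52 and 12.91 at 6 h, and 12.74, 12.57 and 12.81 at 24 h. The pigs came closer with time, mostly because pig 3 was high at 20 min. Its changes were -0.17, -0.10 and -0.13 (SD over pigs 0.25, 0.35 and 0.41; limma adjusted p 0.734, 0.839 and 0.680), and without pig 3 they were above 0 at 6 h and 24 h. Pig 3 at 20 min was also the array with the highest means of the fibroblast and macrophage markers; the part of those cells in its eEF1A level was not tested.

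A dimmer set of EF1ALPHA, at the 67.6th percentile of all probe set means, had the lowest values relative to 20 min of all the tested sets of these genes. It read 7.72, 7.25 and 8.08 at 20 min, 7.18, 6.33 and 6.89 at 2 h, 7.21, 6.80 and 7.00 at 6 h, and 7.59, 6.66 and 7.11 at 24 h. Every pig was lower at every later time, and the values of 2 h and 6 h lay wholly below those of 20 min. The changes were -0.88 ± 0.33, -0.68 ± 0.35 and -0.56 ± 0.42 (SD, 3 pigs), with unadjusted p of 5.05e-05, 4.79e-04 and 0.00195 in limma. The adjusted p values were 0.473, 0.463 and 0.203, and leaving out the 20 min array of pig 1 brought them to 0.0389, 0.0521 and 0.0731, so the call at 2 h turned on that array. The limma F test over time gave an unadjusted p of 3.35e-04 and an adjusted p of 0.514. As this is not the brightest set of its gene, it did not enter the counts above.

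The brightest tested set under EEF1A1 read 8.80, 9.15 and 9.04 at 20 min, 8.67, 9.18 and 8.99 at 2 h, 8.71, 9.18 and 9.02 at 6 h, and 8.87, 9.20 and 9.00 at 24 h. Each pig kept to its own level within 0.20, and the changes were -0.05, -0.02 and 0.02. The control set for the 3′ end had changes of -0.15, -0.06 and -0.10, the one for the middle of -0.24, -0.08 and -0.23, and the one for the 5′ end of -0.43, -0.13 and -0.38 at the 3 later times. The 3′ minus 5′ difference, which grows when RNA is broken, was 0.48, 0.63 and 0.23 at 20 min, 0.56, 1.11 and 0.49 at 2 h, 0.54, 0.59 and 0.44 at 6 h, and 0.86, 0.62 and 0.70 at 24 h. At 2 h it was larger than at 20 min in every pig, by 0.08, 0.49 and 0.26. Pigs 1 and 3 had larger differences at 24 h, by 0.38 and 0.47, and pig 2 did not (-0.01). The same difference changed at 24 h by 0.06, 0.01 and 0.04 for GAPDH and by 0.09, -0.23 and -0.04 for actin. Exact permutation of the time labels inside each pig (13824 reassignments) gave p = 0.278 for eEF1A, 0.194 for GAPDH and 0.752 for actin, and the part of RNA breakage in the changes above was not tested.

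**Figure D4:**
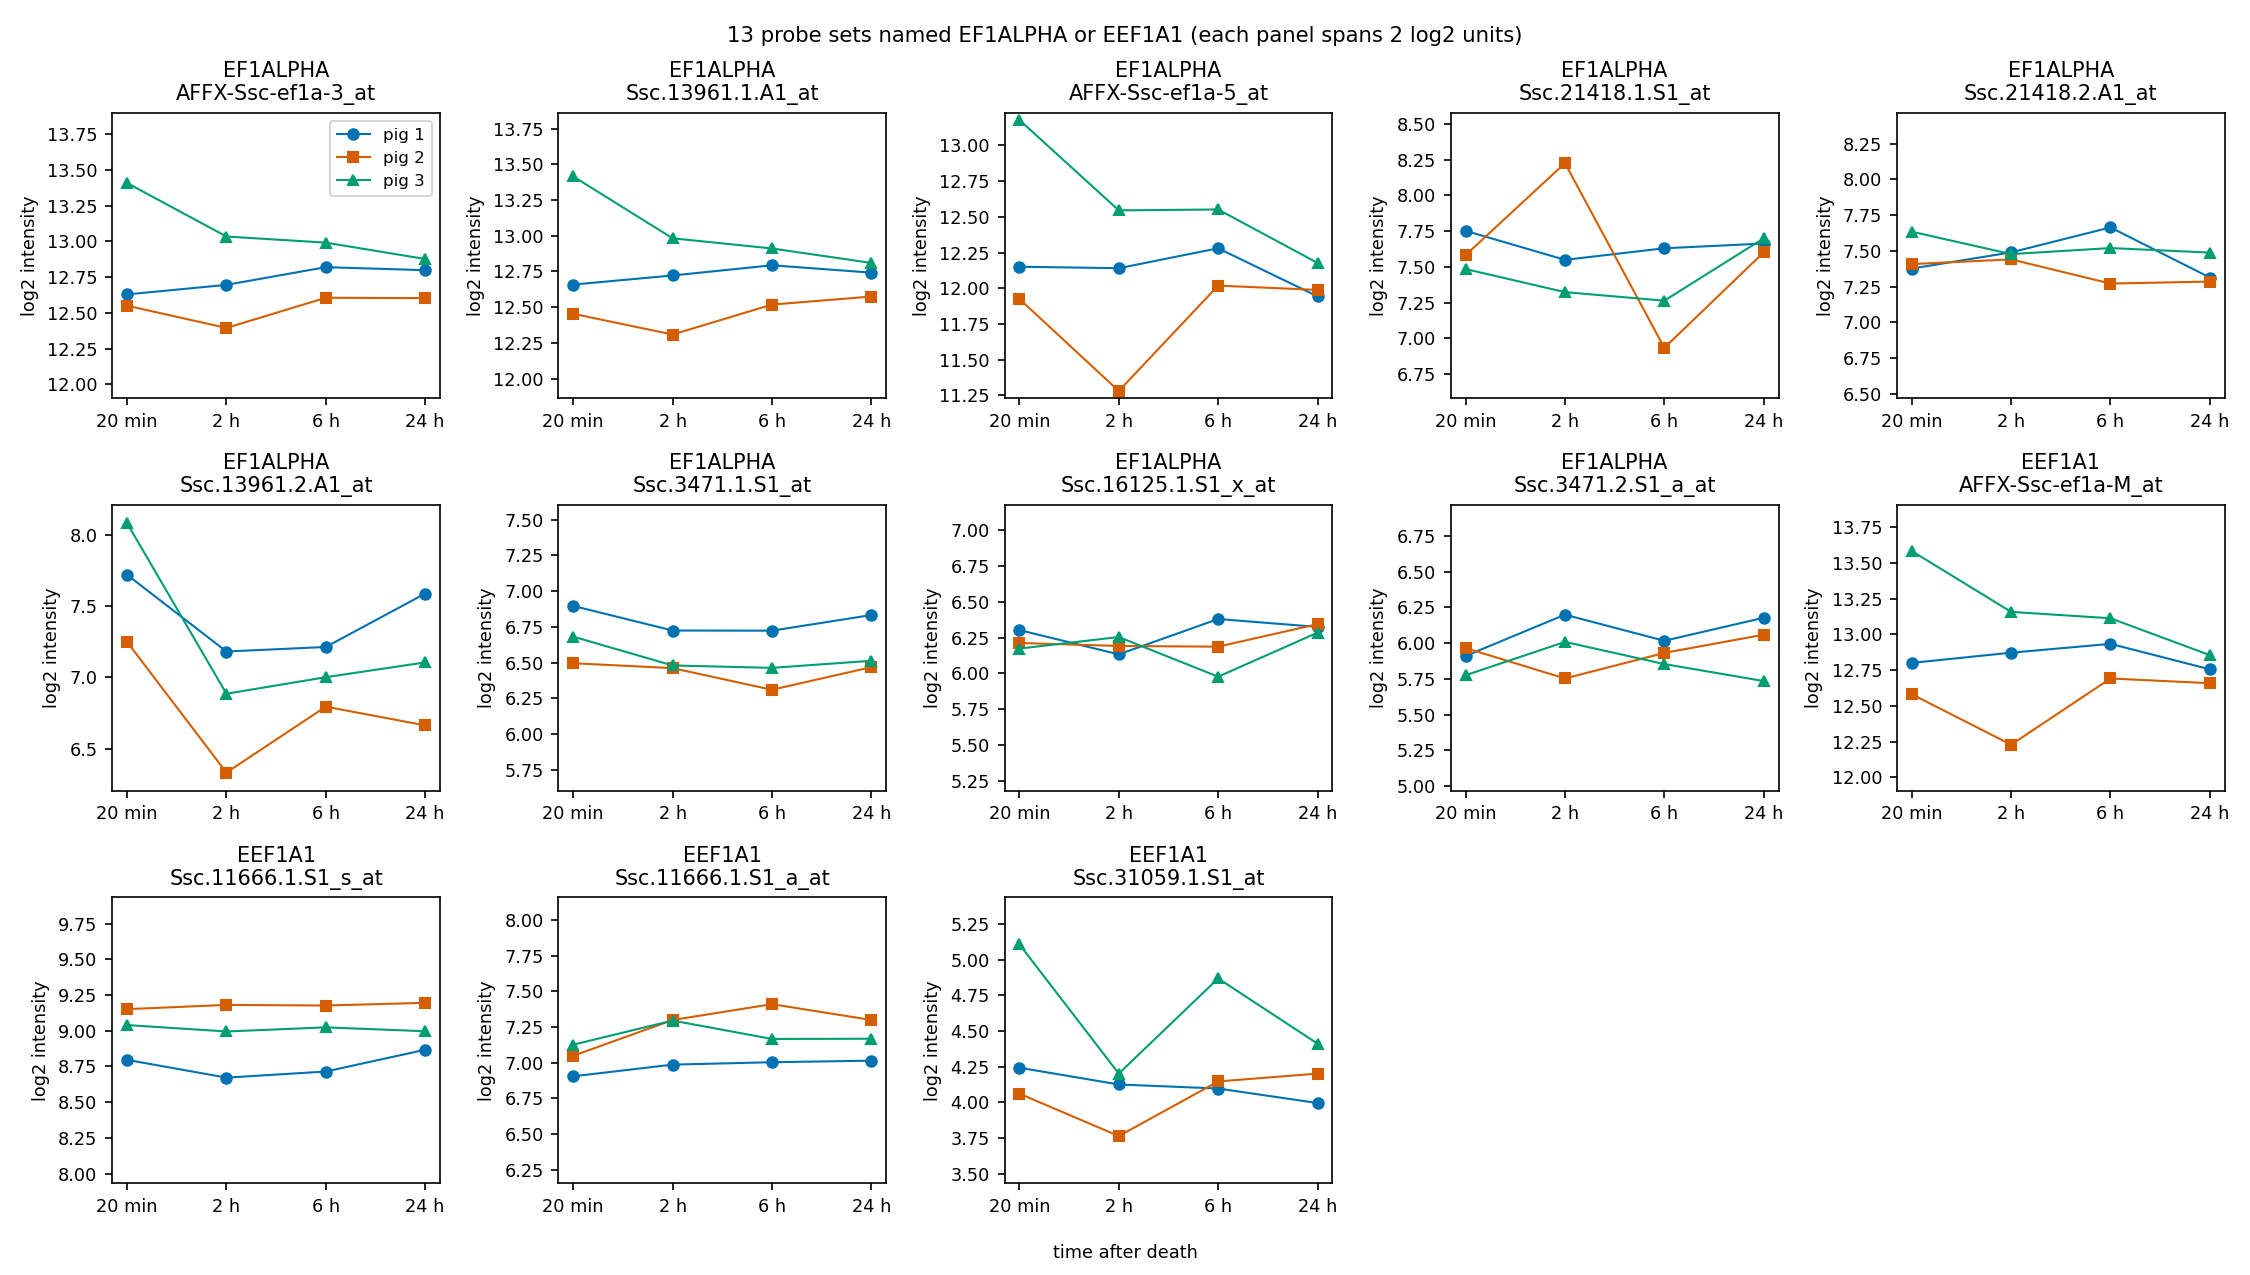
Each panel shows 1 of the 13 probe sets named EF1ALPHA or EEF1A1, as log2 intensity against time after death with 1 line per pig and a vertical span of 2 log2 units. The dimmer EF1ALPHA set of the text, at the left of the middle line of panels, is lower after 20 min in each pig; the bright sets narrow towards 24 h as pig 3 comes down from a high start, and the brightest tested EEF1A1 set, at the lower left, is level.

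The partners of eEF1A had lower means at 24 h in 3 of 4 genes, with a median of -0.12. EEF1E1 encodes AIMP3, a component of the multi-tRNA synthetase complex. It read 8.78, 8.53 and 8.47 at 20 min, 8.47, 8.54 and 8.54 at 2 h, 8.55, 8.60 and 8.60 at 6 h, and 8.41, 8.45 and 8.32 at 24 h. All 24 h values lay below those of 20 min, and pig 1 differed most. The change was -0.20 ± 0.15 (SD, 3 pigs; limma unadjusted p 0.0458, adjusted p 0.375), and it missed an unadjusted p of 0.05 without any 1 pig and with cyclic loess or centring. The second EEF1E1 set had a change of -0.07.

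EEF1D, the delta subunit of the eEF1B exchange complex, was lower in 3 of 3 pigs without overlap at 2 h, 6 h and 24 h. Its levels were 12.20 to 12.26 at 20 min, 12.03 to 12.18 at 2 h, 12.14 to 12.20 at 6 h and 11.98 to 12.11 at 24 h. The change at 24 h was -0.17 ± 0.10 (SD, 3 pigs; limma unadjusted p 0.0530, adjusted p 0.387). EEF1B2, the beta subunit, spanned only 0.16 over the 12 arrays, the narrowest range of the 43 genes, and was lower in 3 of 3 pigs at each later time (-0.06, -0.06 and -0.07). EEF1G, the gamma subunit, had changes of 0.05, 0.08 and 0.01. EEF1AKMT1, a methyltransferase that modifies eEF1A, had changes of 0.00, 0.07 and 0.00. At 24 h 7 of the 43 genes lay wholly below 20 min and 0 wholly above, against 4.72% and 6.99% of all probe sets. The 7 were EIF2S1, EIF2S2, EIF2B2, EIF3K, EEF1B2, EEF1D and EEF1E1. At 2 h 2 genes lay wholly below (3.48% of all probe sets) and 0 above (4.20%), and at 6 h 4 lay below (3.81%) and 2 above (4.24%).

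From 2 h to 6 h 0 of 43 genes had an unadjusted p under 0.05 in limma, against 2.26% of all probe sets, with a median change of 0.01. From 6 h to 24 h the median change was -0.03 (-0.008 with cyclic loess and 0.004 with centring). EIF3B, EIF3D and EIF3L had an unadjusted p under 0.05 in limma as given above. Lower levels in 3 of 3 pigs were seen for 14 genes, against 15.7% of all probe sets and 20.4% of the brightest sets of all named genes. A lower mean was found for 9 of 10 eIF4 genes, against 46.5% and 54.4%.

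Several genes differed more between pigs than between times, as did most of all probe sets. By a limma F test between pigs, 12 of 43 genes (27.9%) differed at an adjusted p under 0.05, against 19.9% of all probe sets, and 17 at an unadjusted p under 0.05, against 34.0%. The SD of the 3 pig means exceeded that of the 4 time means in 30 of 43 genes (69.8%), against 62.1% of all probe sets, and their medians were 0.0773 and 0.0581. EIF4A1 had the smallest adjusted p between pigs, 0.000919, with means over the times of 8.66, 9.46 and 8.91 in pigs 1, 2 and 3. EIF4E followed another order, 7.90, 8.45 and 8.44 (limma adjusted p 0.00424), and so did EIF2AK2 with 6.45, 6.28 and 6.90 (limma adjusted p 0.00430). The other 9 were EIF2D, EEF1A1, EIF1AX, EIF2B3, EF1ALPHA, EIF4EBP2, EIF4G3, EIF3L and EIF5B. Pig 1 had the lowest mean in EIF4A1, EIF2D, EEF1A1, EIF1AX, EIF4E, EIF2B3, EIF4EBP2, EIF4G3 and EIF3L. How often pig 1 was lowest over all probe sets was not counted. The pigs differ in their markers of other cell types too, whose part was not tested.

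**Figure D5:**
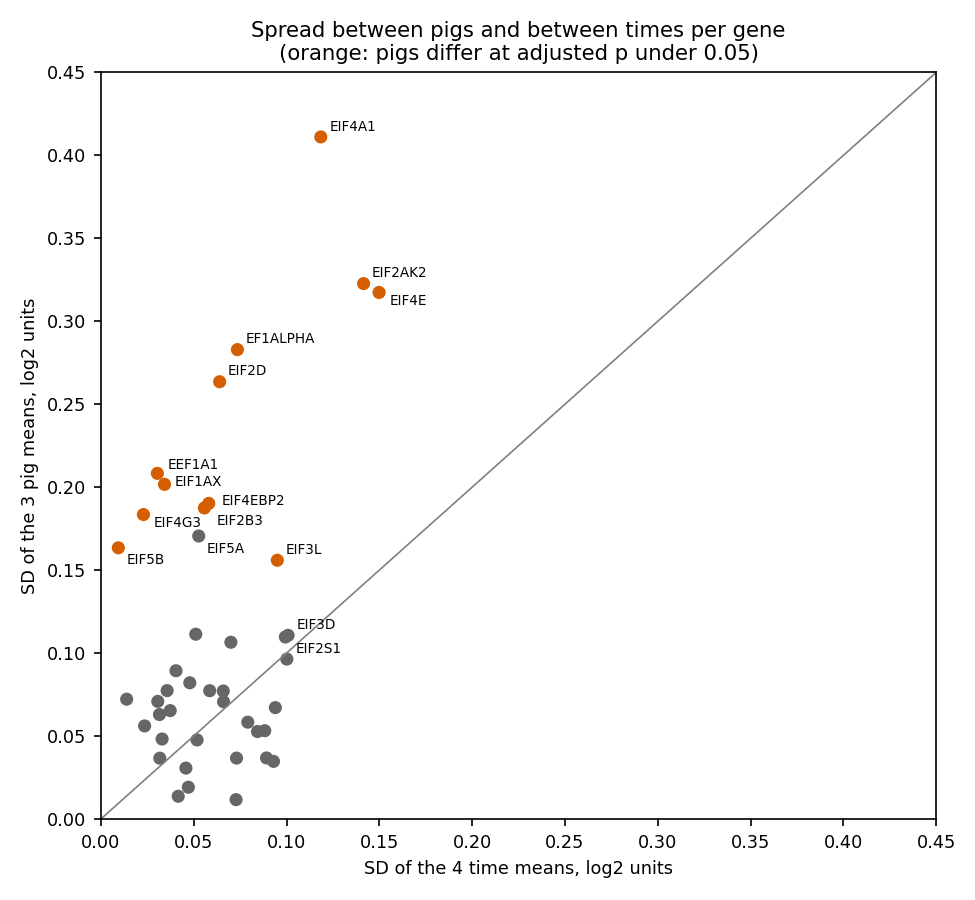
For each of the 43 genes the SD of its 3 pig means (vertical axis) is set against the SD of its 4 time means (horizontal axis), both in log2 units, with the line of equality. Points above the line, 30 of 43, vary more between pigs than between times, and orange marks the 12 genes whose pigs differ at an adjusted p under 0.05, with EIF4A1 on top.

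Where a gene had several probe sets, they did not always have 1 sign. The same count over all genes with several sets was not made. Of 17 such genes, all sets had 1 sign in 12 genes at 2 h, 9 at 6 h and 10 at 24 h. Among the 28 further sets 6 (21.4%), 5 (17.9%) and 3 (10.7%) had an unadjusted p under 0.05 in limma, against 7.95%, 8.83% and 13.1% of all probe sets. A dim second set of EIF3D was higher at 24 h by 0.25 in 3 of 3 pigs without overlap (limma unadjusted p 0.00929, adjusted p 0.266), whereas the bright EIF3D set had a change of -0.03. A second EIF3M set had changes of -0.36 and -0.40 at 2 h and 6 h (limma adjusted p 0.608 and 0.507), and the bright EIF3M set of -0.10 and -0.06. EIF3M encodes a subunit of eIF3. A dim EEF1A1 set had a change of -0.44 at 2 h (limma adjusted p 0.592), in contrast to the brighter EEF1A1 set above.

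Of 47 other genes of the pathway, 0 had an adjusted p under 0.05 in limma at any time. Those at an unadjusted p under 0.05 numbered 4 at 2 h (8.51%), 4 at 6 h (8.51%) and 3 at 24 h (6.38%), against 7.95%, 8.83% and 13.1% of all probe sets. Of 11 mTORC1 and translation control genes on the array (of 22 listed), 2 were higher and 1 lower at unadjusted p under 0.05 at 2 h, 3 and 0 at 6 h, and 1 and 1 at 24 h, which is 27.3%, 27.3% and 18.2% of that list. AKT1, the kinase of insulin signalling upstream of mTORC1, differed by 0.27, 0.30 and 0.22 from 20 min and was higher in 3 of 3 pigs each time (limma adjusted p 0.587, 0.488 and 0.318). AKT1S1, an mTORC1 component that AKT phosphorylates, differed by 0.28 and 0.33 at 2 h and 6 h, and MKNK1, a kinase of eIF4E, by 0.23 at 6 h. The AMPK catalytic subunit genes lay on the lower side, PRKAA1 by -0.33 at 2 h and PRKAA2 by -0.33 at 24 h (limma adjusted p 0.608 and 0.222). PRKAA1 was lower at 2 h in 2 of 3 pigs, and PRKAA2 at 24 h in 3 of 3. Of 6 targets and regulators of eIF2 phosphorylation (of 9), 5, 4 and 6 had lower means at the 3 later times. Over all probe sets tested the shares were 50.0%, 51.8% and 48.0%. At an unadjusted p under 0.05 in limma, 1 was lower at 2 h, 0 at 6 h and 1 at 24 h. It was ASNS, asparagine synthetase, at -0.30 and -0.34, lower in 3 of 3 pigs. None of 17 aminoacyl-tRNA synthetase genes (of 22) had an unadjusted p under 0.05 at any time, nor had any of 4 termination and poly(A) binding genes (of 17) or 3 genes that modify eIF5A and eEF2 (of 8). Among 6 mitochondrial translation factors (of 10), TUFM, the mitochondrial counterpart of eEF1A, was higher at 6 h by 0.23 (limma adjusted p 0.540). That rise was seen in 2 of 3 pigs.

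None of the 5 genes lower at 24 h kept an unadjusted p under 0.05 without pig 1, where their unadjusted p in limma ranged from 0.0509 to 0.281; all 5 means stayed below 0. The 1 gene below 0.05 without pig 1 was EIF3I, on the higher side (0.29; limma unadjusted p 0.0326, adjusted p 0.387). Without the 24 h array of pig 1 the count of genes was 2, and without that of pig 3 it was 3.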

How the data were processed

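Total RNA of 12 muscle portions was hybridised to one-colour Affymetrix porcine arrays. The authors deposited 1 log2 intensity per probe set and array. The submitters' processing notes name RMA and affy without versions. RMA makes the distributions of the arrays equal, so a shift of all transcripts alike would not show. Control sets (124 of 24123) stayed out of the tests; 23999 sets were tested without a filter on level. The number of arrays limits the precision.

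Names came from the 2016 platform annotation (10099 sets with 1 symbol, 198 with several, 13826 with none). Of the 43 gene IDs, 41 matched the RefSeq table of assembly Sscrofa11.1. In that table EIF2B4, EIF3B and EIF4B are typed as lncRNA under these IDs.

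R 4.3.3 and limma 3.58.1 (statmod 1.5.0) fitted 1 model of time with pig as a fixed block (6 residual and 5.67 prior degrees of freedom). The p-values are two-sided and Benjamini-Hochberg adjusted over all tested sets, with 0.05 as the threshold. The pigs pair the arrays per the design text, and deviations of arrays of 1 pig from the time means correlated with r from 0.409 to 0.656 (18 pairs). The F test between pigs, the counts of lower means, the use of the control sets and the count of EF1ALPHA and EEF1A1 as 1 gene were chosen after seeing the data. Members and lists were chosen with earlier results of these data known. Values per array are given for members at unadjusted p under 0.05 against 20 min and for a list of core factors; pathway genes are named at unadjusted p under 0.05, up to 4 per list and time. Further probe sets, EIF2A, EIF2B2, EIF3B, EIF3I, EIF3L, EIF4E2 and EEF1D were singled out after their values were seen. Alternatives were no block, a random block, cyclic loess, centring, a trended robust prior, a filter on dim sets, other probe set choices, 2 times only, and each array or pig left out. The fit was tested on simulated data.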

Additional observations from a re-analysis of the deposited data

How the results depend on the processing

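On its brightest set, no member passed an adjusted p under 0.05 in limma in any of the 5 comparisons or the F test under any alternative run. The dimmer EF1ALPHA set passed at 2 h without the 20 min array of pig 1 (adjusted p 0.0389), and no result changed its call to the other sign. The genes at unadjusted p under 0.05 (1 at 2 h, 2 at 6 h, 5 at 24 h, 3 from 6 h to 24 h) changed as follows. Without the replicate block for pig there were 0 at 2 h, 0 at 6 h and 1 from 6 h to 24 h; with pig as a random block 0 at 2 h and 1 at 6 h. With cyclic loess there were 0 at 2 h and 1 from 6 h to 24 h; with centring on the brightest 10% 1 at 6 h, 3 at 24 h and 1 from 6 h to 24 h. A trended robust prior gave 3, 5, 8, 5 and, in the F test, 7. With every probe set in place of the brightest there were 7, 7 and 8 against 20 min, 1 from 2 h to 6 h, 5 from 6 h to 24 h and 3 in the F test, and 38, 44 and 56 of 71 sets had lower means. The mean of the sets of a gene gave 2 at 2 h, and only the 2 times compared gave 0, 1 and 3. The median change at 24 h was -0.0392 with cyclic loess, -0.0309 with centring and -0.0803 with the mean of sets; from 6 h to 24 h it was -0.00805 with cyclic loess and 0.00384 with centring. Leaving out 1 array or 1 pig gave 0 to 2 genes at 2 h, 0 to 4 at 6 h, 1 to 6 at 24 h (the 1, without pig 1, was EIF3I on the higher side), 0 to 1 from 2 h to 6 h, 0 to 4 from 6 h to 24 h and 0 to 2 in the F test. The 6 h count was 0 when pig 1, pig 2, the 20 min array of pig 2 or the 6 h array of pig 1 was left out, and 4 when the 20 min array of pig 1 was. From 6 h to 24 h it was 0 when pig 1, pig 3, the 6 h array of pig 1 or a 24 h array of pig 1 or pig 3 was left out. Lower means then numbered 23 to 29, 23 to 28 and 30 to 37, and medians ranged from -0.0498 to -0.0201, -0.0448 to -0.00626 and -0.0727 to -0.0509 against 20 min, from 0.00570 to 0.0241 from 2 h to 6 h and from -0.0609 to -0.0312 from 6 h to 24 h. Without the dimmest 40% of probe sets EIF1AY was not tested. Of 24 alternatives, EIF2S1 kept an unadjusted p under 0.05 in limma at 24 h in 21, EIF1B in 20 and EIF4E in 19. EIF2S2 kept it at 24 h in 15 and EEF1E1 in 9, EIF2AK2 at 6 h in 16 and at 2 h in 12, and EIF3D at 6 h in 9. Each stayed on its side of 0 in all 24, but many of these could not move it. The block options, the prior, the filter on dim sets, the 2 times alone and a left-out array of another time leave the log2 change as it was. With the control sets allowed, a choice made after seeing the data, they represented both eEF1A symbols, and EEF1A1 at 24 h was -0.23 in place of 0.02 (limma adjusted p 0.518). Signal over background per probe is not in the values used, and cooling cannot be parted from time.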
